A study of Arabidopsis thaliana with 6 samples.

Results

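The genes described here encode enzymes that make plastid isoprenoid precursors, carotenoids and tocopherol, or that cleave carotenoids, in *Arabidopsis thaliana*. They were picked by gene identifier under a rule that uses no measured value, but with earlier results of these data known, and number 32. Of these, 22 were among the 11167 genes of the deposited count table, and all 22 passed the study's filter, which asks for 5 or more reads in any 1 library and which 10622 genes passed. The other 10 were not analysed here: MDS of the MEP pathway, Z-ISO, ZDS, CRTISO and LUT2 of carotene synthesis, BCH2, LUT1 and NPQ1 of the xanthophyll branch, NCED3, which cleaves xanthophylls for abscisate, and VTE2 of tocopherol synthesis.

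The study followed singlet oxygen (1O2) in the *flu* mutant, which cannot restrain protochlorophyllide synthesis in the dark. Protochlorophyllide that has built up in darkness makes 1O2 when light returns. RNA came from whole 2-week-old seedlings of *flu* 1-1 in the Col-0 background, kept in water. By the treatment protocol and the design text, the *flu* 4 h group (n = 3 libraries) spent 4 h in the dark and then 30 min in light of 30 µE, and the *flu* 0 h group (n = 3 libraries) had 0 h of darkness before the same light. The sources differ on this: the treatment field of the labels words the hours as exposure to light, growth light was continuous by the labels and a day and night cycle by the study's methods, and the study's data list gives this record as its cycloheximide set from wild type rather than as *flu*. The groups are called here by their sample titles, and what follows on darkness and 1O2 holds only if the protocol is right. Every library is labelled as carrying the *flu* mutation, and by the protocol no group spent 4 h in light, so darkness, the hours spent in water and the time of day cannot be told apart from the release of 1O2. Whether the replicates of a group were grown apart is not in the labels, so p-values speak only of the spread among these libraries, which may be technical.

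In plastids the methylerythritol phosphate (MEP) pathway makes the isoprenyl units from which carotenoids, the tails of chlorophylls and tocopherols, and plastoquinone are built. Carotenoids quench 1O2 and excited chlorophyll within the photosystems, and tocopherol quenches 1O2 and stops lipid peroxidation in the thylakoid membrane. Carotenoids are also cleaved to volatiles and to the precursors of abscisate and strigolactones, and the lipid droplets of the chloroplast, the plastoglobules, hold tocopherol and carotenoid-cleaving enzymes.

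Reads assigned to genes numbered from 1012425 to 2185464 in the *flu* 4 h libraries and from 1487666 to 1924910 in the *flu* 0 h libraries. Levels are given as CPM, the reads of a gene brought to a common library total after TMM scaling, and 3 reads, taken as the floor, stood for 1.37 to 2.97 CPM. The libraries hold reads from 3′ ends that were not collapsed by molecular identifier, so counting intervals cover counting error only. Replicate 3 of *flu* 4 h lay apart from its group on the second principal component of all genes (-40.1, against 15.0 and 28.8), and results that depend on it are given with and without it. By the test described below, 4 of 5 markers of leaf mesophyll (80%) were called lower after 4 h, against 8.18% of all genes. The 5 markers summed to 33135 to 41024 CPM in *flu* 4 h and 44395 to 50257 CPM in *flu* 0 h. RBCS1A, the most abundant of them, had a log2 fold change of -0.01 (SE 0.13, adjusted p = 0.980 by edgeR). Root markers summed to 114 to 194 CPM in *flu* 4 h and 129 to 171 CPM in *flu* 0 h. Of the 7 tested, 1 (14.3%), LRX1 of root hairs, was called lower, against 8.18% of all genes. None of the 8 root and 5 leaf markers listed was at 0 in all libraries. The single guard cell marker, FAMA, had 26.2 to 31.6 CPM in *flu* 4 h and 22.0 to 34.9 CPM in *flu* 0 h. The part of the lower leaf markers in the results below was not tested, and in whole seedlings fewer cells of a type and less RNA per cell cannot be told apart.

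In *flu* 4 h, 5 members were lower and 1 was higher than in *flu* 0 h. The lower ones were *CCD4*, which cleaves carotenoids in plastoglobules, *DXS* and *DXR*, the opening enzymes of the MEP pathway, *GGPPS11*, the main plastid geranylgeranyl diphosphate synthase, and *ABA1*, zeaxanthin epoxidase. The higher one was *HPPD*, which makes homogentisate, the head group of tocopherol and plastoquinone. The call rests on the quasi-likelihood test of edgeR with Benjamini-Hochberg adjustment over all 10622 genes at 0.05. By that rule 6 of 22 members (27.3%) were called, where 16.6% of all genes tested were. The members called lower were 5 of 22 (22.7%), against 8.18% of all genes, and the member called higher was 1 of 22 (4.55%), against 8.37% of all genes. The members were chosen with earlier results of these data known, so these shares and those below are description only. The median log2 fold change was -0.44 over the 22 members and -0.06 over all genes tested, and it was also -0.44 over the 20 members without *MCT* and *PSY*, which had very few reads.

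The CPM of the 3 libraries of one group did not overlap those of the other group in 15 of 22 members (68.2%), as in 32.3% of all genes. The *flu* 4 h libraries were the lower ones, without overlap, in 12 of the 22 members and in 16.9% of all genes. They were the higher ones, without overlap, in 3 of the 22 members and in 15.3% of all genes. All 6 called members were among the 15. *PSY* was too, though it passed the filter only through replicate 3 of *flu* 0 h, the group where it was higher. Without *MCT* and *PSY* the count without overlap was 14 of 20. Against a change of at least 2-fold (glmTreat of edgeR), *CCD4* alone of the 22 members passed, with an adjusted p of 6.09e-05.

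**Figure D1:**
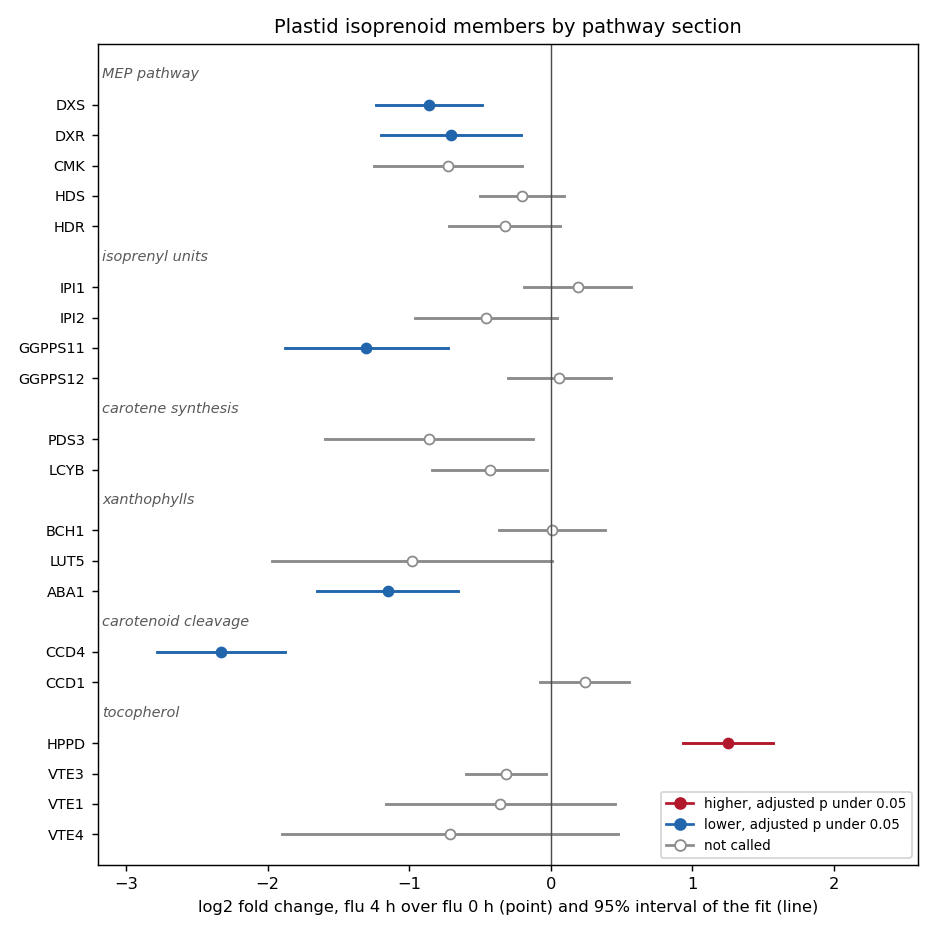
Log2 fold change of *flu* 4 h over *flu* 0 h for 20 members, grouped by pathway section, with the estimate of the edgeR fit as a point and its 95% interval as a line. Filled points passed an adjusted p of 0.05 over all genes tested: *CCD4* lies lowest at -2.33 and *HPPD* highest at 1.25, while *MCT* and *PSY*, with few reads, are not drawn.

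*CCD4* (AT4G19170, chromosome 4, 10481619 to 10483879, plus strand, 1 exon) encodes carotenoid cleavage dioxygenase 4, which cuts carotenoids into smaller apocarotenoids. Its level was 15.0, 19.9 and 20.8 CPM in the *flu* 4 h libraries, against 80.7, 98.5 and 93.6 CPM in the *flu* 0 h libraries. The highest *flu* 4 h library lay far below the lowest *flu* 0 h library. The log2 fold change was -2.33 (SE 0.22, 95% interval -2.79 to -1.88, adjusted p = 2.04e-08 by edgeR), so that *flu* 0 h was 5.04-fold higher. It was called lower under each of 18 alternative settings. *CCD1* encodes the dioxygenase that cleaves carotenoids in the cytosol. It had 251, 215 and 249 CPM in *flu* 4 h, against 196, 197 and 213 CPM in *flu* 0 h, groups that just failed to overlap, and its log2 fold change of 0.24 (95% interval -0.07 to 0.55, adjusted p = 0.317 by edgeR) did not pass the test. The log2 ratio of *CCD4* to *CCD1* reads was -4.04, -3.41 and -3.55 in *flu* 4 h and -1.28, -0.998 and -1.19 in *flu* 0 h. This ratio was formed after both genes had been seen and has no test.

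*HPPD* (AT1G06570, chromosome 1, 2011885 to 2013545, minus strand, 2 exons) encodes 4-hydroxyphenylpyruvate dioxygenase. The enzyme turns a tyrosine derivative into homogentisate, at the point where amino acid breakdown and prenylquinone synthesis meet. Its level was 433, 359 and 388 CPM in *flu* 4 h, against 157, 189 and 148 CPM in *flu* 0 h. Each *flu* 4 h library was well above each *flu* 0 h library. The rise was 2.39-fold, a log2 fold change of 1.25 (SE 0.16, 95% interval 0.93 to 1.58, adjusted p = 2.06e-06 by edgeR). It was called higher in 17 of 18 alternatives, the test against a 2-fold change being the exception (adjusted p = 0.495). The annotated gene overlaps AT1G06560 on the opposite strand by 122 bases, and whether counting used strand is not given in the sources used here. AT1G06560 itself had a log2 fold change of 0.35 (SE 0.51, adjusted p = 0.699 by edgeR). The same limit holds for *DXR*, *MCT*, *CMK*, *PSY*, *LCYB*, *LUT5*, *CCD1*, *VTE3* and *VTE4*. They overlap a gene on the opposite strand by 13 (*DXR*) to 157 (*LCYB*) bases. It also holds for *IPI2*, below.

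The stretch before the *HPPD* start is shown because it was the only window among the 22 members with a G-box, the element CACGTG that bZIP and bHLH factors bind, and it held 2 of them. Windows ran from 250 bases before to 50 after the annotated gene start (RefSeq, TAIR10.1) and were searched on both strands. The sequence lies at chr1:2013649-2013789, minus strand, upstream of the gene, and the 2 G-boxes, in capitals, begin at positions -224 and -129 from the start.
HPPD: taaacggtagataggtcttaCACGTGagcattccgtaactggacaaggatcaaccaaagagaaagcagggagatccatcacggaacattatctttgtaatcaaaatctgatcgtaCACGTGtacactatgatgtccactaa
A G-box stood in 7.68% of the 27443 windows of protein-coding genes and in 9.24% of those of genes tested, and 1.06% of all windows held 2 or more. Among the members analysed it stood in 1 of 22 windows (4.55%). *MDS*, *BCH2* and *VTE2*, not analysed here, also held it, which made 4 of all 32 members (12.5%). The match describes the letters of the window only.

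No other tocopherol gene analysed passed the test. *VTE3*, the methyltransferase that makes plastoquinone and the tocopherol precursor, had 501, 535 and 537 CPM in *flu* 4 h, against 625, 681 and 652 CPM in *flu* 0 h. The groups did not overlap, with *flu* 4 h the lower, but the log2 fold change of -0.32 (95% interval -0.60 to -0.03) gave an adjusted p of 0.124 by edgeR. Tocopherol cyclase (*VTE1*) had a log2 fold change of -0.36 (95% interval -1.17 to 0.46). The γ-tocopherol methyltransferase (*VTE4*), read fewer than 20 times per library, had -0.71 (95% interval -1.90 to 0.47). The groups overlapped in both, and neither passed the test. Summed over the 4 tocopherol genes, the level was 904 to 950 CPM in *flu* 4 h and 800 to 889 CPM in *flu* 0 h, without overlap. The order turned when *HPPD* was left out of the sum, to 517 to 556 CPM in *flu* 4 h and 643 to 700 CPM in *flu* 0 h.

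**Figure D2:**
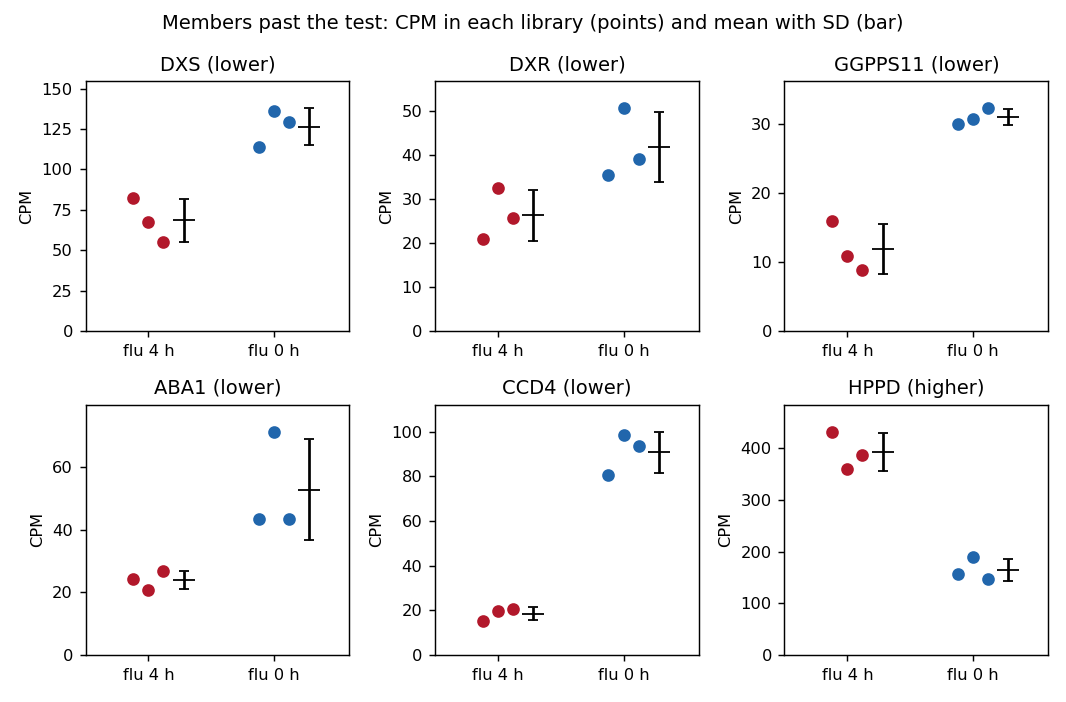
CPM of the 6 members that passed the test, 1 panel per gene, with a point per library and a bar for the mean with its SD (n = 3), *flu* 4 h in red and *flu* 0 h in blue. The groups are separate in all 6 panels, most widely in *CCD4* (15.0 to 20.8 CPM in *flu* 4 h, 80.7 to 98.5 CPM in *flu* 0 h) and by the least in *DXR*.

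In the MEP pathway the 2 genes called were those of the opening enzymes, both lower in *flu* 4 h. *DXS* (AT4G15560, chromosome 4, 8883825 to 8887667, plus strand, 9 exons), whose product joins pyruvate and glyceraldehyde 3-phosphate and is held to control flux through the pathway, had 82.4, 67.7 and 55.4 CPM in *flu* 4 h, against 114, 136 and 129 CPM in *flu* 0 h. All *flu* 4 h libraries were lower. *DXS* had a log2 fold change of -0.86 (SE 0.18, 95% interval -1.24 to -0.49, adjusted p = 0.00143 by edgeR). Without replicate 3 of *flu* 4 h it was -0.74 (adjusted p = 0.0131).

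*DXR* (AT5G62790, chromosome 5, 25214125 to 25217469, minus strand, 12 exons) encodes the reductoisomerase that forms methylerythritol phosphate. It had 20.9, 32.5 and 25.7 CPM in *flu* 4 h, against 35.5, 50.8 and 39.2 CPM in *flu* 0 h. The groups did not overlap, but the highest *flu* 4 h library was close to the lowest *flu* 0 h library. The log2 fold change was -0.70 (SE 0.24, 95% interval -1.20 to -0.21), and the adjusted p of 0.0447 by edgeR was just under the threshold. The call was lost without any 1 of 5 libraries. The log2 fold change and its adjusted p by edgeR were -0.52 and 0.215 without *flu* 4 h replicate 1, and -0.70 and 0.0950 without *flu* 4 h replicate 3. They were -0.81 and 0.0536, -0.51 and 0.227, and -0.75 and 0.0595 without *flu* 0 h replicates 1, 2 and 3 in turn. *DXR* was also not called by DESeq2 (adjusted p = 0.127) or when all libraries were thinned to the smallest (adjusted p = 0.0919).

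Later steps of the MEP pathway did not pass the test, and whether early and late steps differed was not tested. *CMK*, the kinase in the middle of the pathway, came nearest, with 19.1, 20.8 and 17.8 CPM in *flu* 4 h, against 26.3, 31.8 and 37.8 CPM in *flu* 0 h. Its groups did not overlap, and its log2 fold change of -0.73 (95% interval -1.25 to -0.20, adjusted p = 0.0510 by edgeR) was called in 4 of 18 alternatives, which differed in scaling or in the filter. The last enzymes, *HDS* and *HDR*, which carry iron-sulphur clusters, had log2 fold changes of -0.21 (95% interval -0.50 to 0.09) and -0.32 (95% interval -0.72 to 0.07), with separate groups in *HDS* and overlapping groups in *HDR*. *MCT*, the cytidyl transferase, had 14 reads in replicate 1 of *flu* 4 h and 0 in each other library, so that a single library set its fit (adjusted p = 0.0527 by edgeR), and no fold is given. The 6 MEP genes summed to 480 to 539 CPM in *flu* 4 h and 616 to 719 CPM in *flu* 0 h, without overlap.

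Among the genes that make and join isoprenyl units, *GGPPS11* fell. It is AT4G36810 (chromosome 4, 17343374 to 17345171, plus strand, 1 exon), and its product supplies geranylgeranyl diphosphate to carotenoids, chlorophylls and tocopherols alike. It had 15.9, 10.8 and 8.90 CPM in *flu* 4 h, against 30.0, 30.8 and 32.3 CPM in *flu* 0 h. The *flu* 0 h libraries lay close together, and all *flu* 4 h libraries were far below them. The fall was -1.30 on the log2 scale (SE 0.28, 95% interval -1.88 to -0.72, adjusted p = 0.00167 by edgeR), and it was called in 17 of 18 alternatives, all but the test against a 2-fold change. *GGPPS12*, which encodes a small subunit that binds *GGPPS11* and has no such activity alone, had 97.4, 116 and 112 CPM in *flu* 4 h, against 116, 109 and 84.6 CPM in *flu* 0 h. Its groups overlapped, and its log2 fold change was 0.06 (95% interval -0.30 to 0.42). That estimate was -0.02 with upper quartile scaling.

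The isopentenyl diphosphate isomerases, *IPI1* and *IPI2*, interconvert the 5-carbon units. *IPI1* had 63.7, 74.0 and 72.2 CPM in *flu* 4 h, against 57.5, 63.1 and 61.9 CPM in *flu* 0 h, separate by a narrow margin, with a log2 fold change of 0.19 (95% interval -0.18 to 0.57, adjusted p = 0.535 by edgeR). *IPI2* had 84.6, 48.8 and 41.5 CPM in *flu* 4 h, against 88.0, 54.4 and 109 CPM in *flu* 0 h. These groups overlapped because replicate 1 of *flu* 4 h was high and replicate 2 of *flu* 0 h was low. The log2 fold change of *IPI2* was -0.46 (95% interval -0.96 to 0.05, adjusted p = 0.223 by edgeR). It was called lower without *flu* 4 h replicate 1 (-0.87, adjusted p = 0.0224) and without *flu* 0 h replicate 2 (-0.67, adjusted p = 0.0440). Leaving out any other library gave no call. The estimate shrank to -0.27 (adjusted p = 0.564) without *flu* 4 h replicate 3 and to -0.22 (adjusted p = 0.646) without *flu* 0 h replicate 3, by edgeR. *IPI1* and *IPI2* are close paralogs, and *IPI2* overlaps AT3G02790 on the opposite strand by 712 bases, so reads could have been split or shared in ways the counts do not show.

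The log2 ratio of *IPI1* to *IPI2* averaged 0.33 ± 0.64 in *flu* 4 h and -0.40 ± 0.54 in *flu* 0 h (SD, n = 3 each), a difference of 0.73 with a p of 0.2 in an exact two-sided permutation test (adjusted p = 0.4). That of *HDS* to *HDR* averaged 1.68 ± 0.10 in *flu* 4 h and 1.6 ± 0.44 in *flu* 0 h, a difference of 0.08 (exact permutation p = 0.8, adjusted p = 0.8). The smallest p that 3 libraries against 3 allow is 0.1, so neither ratio could have passed. Of 5 pairs planned, 3 had a member not analysed here.

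All 3 carotene synthesis genes analysed had estimates below 0, as had 5720 of all 10622 genes tested, and none of the 3 passed the test. Phytoene synthase (*PSY*, AT5G17230), which commits geranylgeranyl diphosphate to carotenoids, was barely read, with 0, 1 and 1 reads in *flu* 4 h, against 2, 4 and 8 reads in *flu* 0 h. Summed, that was 2 reads in *flu* 4 h and 14 in *flu* 0 h. *PSY* passed the filter on low counts only through replicate 3 of *flu* 0 h, the group where it was higher. Scaled for depth, *flu* 0 h was 6.0-fold higher, with a counting interval of 1.38 to 54.4 that leaves out the spread among libraries. The 95% interval of the edgeR fit, as log2 of *flu* 4 h over *flu* 0 h, was -4.75 to 0.01 and included 0. The edgeR test gave an adjusted p of 0.177. Phytoene desaturase (*PDS3*) had 13.7, 11.7 and 3.96 CPM in *flu* 4 h, against 14.7, 18.0 and 24.8 CPM in *flu* 0 h, with separate groups, a log2 fold change of -0.86 (95% interval -1.59 to -0.13) and an adjusted p of 0.104 by edgeR. Replicate 3 of *flu* 4 h was low in *PDS3*, and without it the log2 fold change was -0.56 (adjusted p = 0.316 by edgeR). Lycopene β-cyclase (*LCYB*), which closes the rings of β-carotene, had 43.7, 37.0 and 40.5 CPM in *flu* 4 h, against 52.6, 55.9 and 56.4 CPM in *flu* 0 h. Its groups were separate too, with a log2 fold change of -0.43 (95% interval -0.84 to -0.02, adjusted p = 0.148 by edgeR).

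In the xanthophyll branch *ABA1* fell. It is AT5G67030 (chromosome 5, 26753469 to 26757402, minus strand, 16 exons) and encodes zeaxanthin epoxidase, which turns zeaxanthin back to violaxanthin in the xanthophyll cycle and also feeds the synthesis of abscisate. It had 24.1, 20.8 and 26.7 CPM in *flu* 4 h, against 43.4, 71.3 and 43.4 CPM in *flu* 0 h. The groups did not overlap, and replicate 2 of *flu* 0 h was the highest library by a wide margin. The log2 fold change was -1.15 (SE 0.24, 95% interval -1.65 to -0.65, adjusted p = 0.00136 by edgeR), and without that library it was -0.84 (adjusted p = 0.0234). Violaxanthin de-epoxidase (*NPQ1*), which runs the cycle the other way, was not analysed here.

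The *ABA1* window is shown because it was the only one of a called member with an I-box, GATAAG, an element of light-regulated promoters. It lies at chr5:26757458-26757503, minus strand, upstream of the start, with the I-box, in capitals, at position -81 from the start.
ABA1: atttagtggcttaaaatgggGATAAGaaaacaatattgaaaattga
An I-box stood in 3 of the 22 members' windows (*CMK*, *ABA1* and *VTE4*; 13.6%) and in 14.6% of all windows, so that the members held it about as often as any gene. The evening element AAAATATCT of clock-regulated genes stood in 0 of 22 members' windows and in 2.82% of all windows. No motif stood in the windows of *CCD4*, *DXS*, *DXR* or *GGPPS11*.

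The other xanthophyll genes analysed make hydroxylases. *BCH1*, the β-carotene hydroxylase, had 95.1, 74.0 and 114 CPM in *flu* 4 h, against 95.4, 87.7 and 97.7 CPM in *flu* 0 h. These groups overlapped fully, and the log2 fold change of 0.01 (95% interval -0.36 to 0.39) took either sign under other settings. *LUT5*, a cytochrome P450 that hydroxylates carotene rings on the way to lutein, had 2.28, 5.42 and 6.92 CPM in *flu* 4 h, against 10.4, 8.21 and 7.57 CPM in *flu* 0 h. Its groups were separate, at fewer than 20 reads per library, and its log2 fold change of -0.98 (95% interval -1.97 to 0.01) gave an adjusted p of 0.181 by edgeR.

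**Figure D3:**
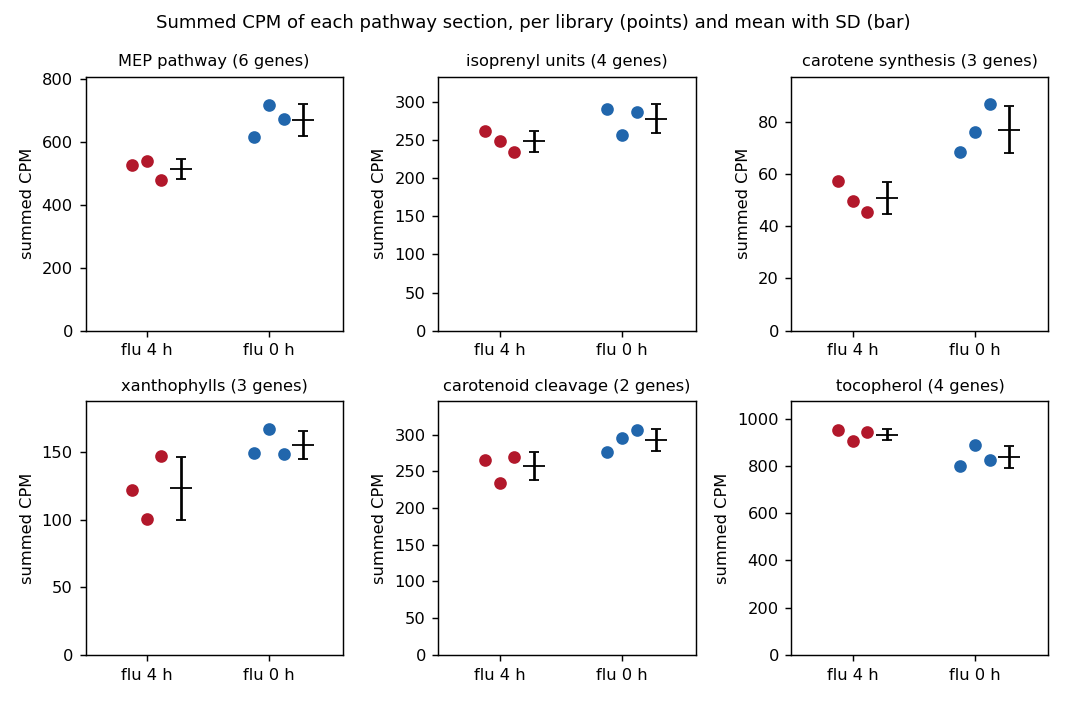
Summed CPM of the members of each pathway section in each library (points), with the mean and SD (bar, n = 3), *flu* 4 h in red and *flu* 0 h in blue. The *flu* 4 h libraries are the lower ones, without overlap, in the MEP pathway, carotene synthesis, xanthophylls and carotenoid cleavage, they overlap *flu* 0 h in isoprenyl units, and they are the higher ones in tocopherol, where *HPPD* sets the order.

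The section sums put these genes together per library. Carotene synthesis summed to 45.5 to 57.3 CPM in *flu* 4 h and 68.5 to 86.7 CPM in *flu* 0 h. The xanthophyll genes summed to 100.2 to 147 CPM in *flu* 4 h and 149 to 167 CPM in *flu* 0 h, a gap of little more than 1 CPM. The cleavage genes summed to 235 to 270 CPM in *flu* 4 h and 277 to 307 CPM in *flu* 0 h, an order that *CCD1* alone did not share. Of the 14 members that were not called and had more than a few reads, 10 had estimates below 0. Over all 10622 genes tested, called or not, 5720 had estimates below 0. In 4 of the 10 (*CMK*, *PDS3*, *LCYB* and *VTE3*) the 95% interval, which is not adjusted for the number of genes, also lay below 0. The share of all genes with such an interval was not counted, so these 4 have no background to be set against and are description only.

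Other genes of the same pathways, listed by role, were counted in the same fit. Of 25 tested, 4 were lower and 1 was higher (20% called, against 16.6% of all genes), and their median log2 fold change was -0.31. In the prenyl list, *CHLP*, the geranylgeranyl reductase that makes the phytyl tail of chlorophyll and tocopherol, had 847, 817 and 683 CPM in *flu* 4 h, against 1516, 1505 and 1317 CPM in *flu* 0 h. These groups were wide apart, with a log2 fold change of -0.88 (SE 0.14, adjusted p = 6.03e-05 by edgeR). *DXPS1*, a relative of *DXS*, had 0 CPM in each *flu* 4 h library, against 0, 3.59 and 0.69 CPM in *flu* 0 h, which was at or under the floor in all but 1 library.

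Of the plastoglobule fibrillins, structural proteins of the droplets that hold tocopherol, *FBN1A* fell, with 24.6, 13.5 and 32.6 CPM in *flu* 4 h, against 41.0, 68.7 and 46.8 CPM in *flu* 0 h. Its groups were separate, and its log2 fold change was -1.15 (SE 0.26, adjusted p = 0.00290 by edgeR). *FBN4* had 1.37, 0.90 and 0 CPM in *flu* 4 h, against 5.5, 3.08 and 5.51 CPM in *flu* 0 h, and did not pass (adjusted p = 0.0629 by edgeR). All 4 fibrillins had estimates below 0, as had 5720 of all 10622 genes tested. Of the 4, 1 passed (25%, against 16.6% of all genes), and *FBN4* rested on 4 reads in *flu* 4 h and 23 in *flu* 0 h. It passed the filter on low counts only through *flu* 0 h, the group where it was higher.

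*OR-like*, a relative of the chaperone that stabilises phytoene synthase, had 31.9, 10.8 and 15.8 CPM in *flu* 4 h, against 37.9, 28.7 and 64.0 CPM in *flu* 0 h. The groups overlapped, and its log2 fold change of -1.02 (adjusted p = 0.0245 by edgeR) depended on single libraries. The call was lost without *flu* 4 h replicate 2 (-0.74, adjusted p = 0.148), without *flu* 4 h replicate 3 (-0.89, adjusted p = 0.113) and without *flu* 0 h replicate 3 (-0.65, adjusted p = 0.211), and the estimate was -1.69 without *flu* 4 h replicate 1. *CCD8*, a dioxygenase of strigolactone synthesis, had 5.92, 12.6 and 3.96 CPM in *flu* 4 h, against 3.67, 3.08 and 2.06 CPM in *flu* 0 h, and did not pass (adjusted p = 0.124 by edgeR). *VTE6*, a kinase that salvages phytol for tocopherol, had 26.4, 16.3 and 33.6 CPM in *flu* 4 h, against 41.6, 56.4 and 34.4 CPM in *flu* 0 h, with groups that nearly touched. Its log2 fold change was -0.81 (adjusted p = 0.0301 by edgeR), and the call was lost without *flu* 4 h replicate 1 (adjusted p = 0.0615) or 2 (adjusted p = 0.180) and without *flu* 0 h replicate 1 (adjusted p = 0.0611) or 2 (adjusted p = 0.197). *ABC1K3*, a plastoglobule kinase, had a log2 fold change of -0.72 (adjusted p = 0.105 by edgeR).

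Neither of the genes analysed for the steps from xanthoxin to abscisate passed. The oxidase gene *AAO3* had a log2 fold change of -0.51 (95% interval -1.56 to 0.53), and the dehydrogenase gene *ABA2* -0.02 (95% interval -1.67 to 1.64). The cytosolic mevalonate pathway, which makes the same isoprenyl units for sterols outside the plastid, was listed for contrast. *HMG1*, its rate-controlling reductase, had 824, 693 and 747 CPM in *flu* 4 h, against 544, 440 and 429 CPM in *flu* 0 h. Its groups were wide apart, and it rose by a log2 fold change of 0.68 (SE 0.15, adjusted p = 0.00155 by edgeR). *AACT2*, the thiolase at the start of that pathway, had 0.38 (95% interval 0.02 to 0.73, adjusted p = 0.145 by edgeR). The 7 listed mevalonate genes summed to 869 to 1033 CPM in *flu* 4 h and 601 to 713 CPM in *flu* 0 h, and *HMG1* held most of these reads. *HMG1* was the 1 called gene of the 6 tested in the mevalonate list (16.7%, against 16.6% of all genes). Its direction was opposite to *DXS* and *DXR*, but the list as a whole was mixed. Of the 6, 3 had estimates below 0 and 3 above, with a median of 0.15. The second reductase gene, *HMG2*, had few reads and a log2 fold change of -1.11 (95% interval -2.39 to 0.17, adjusted p = 0.247 by edgeR).

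**Figure D4:**
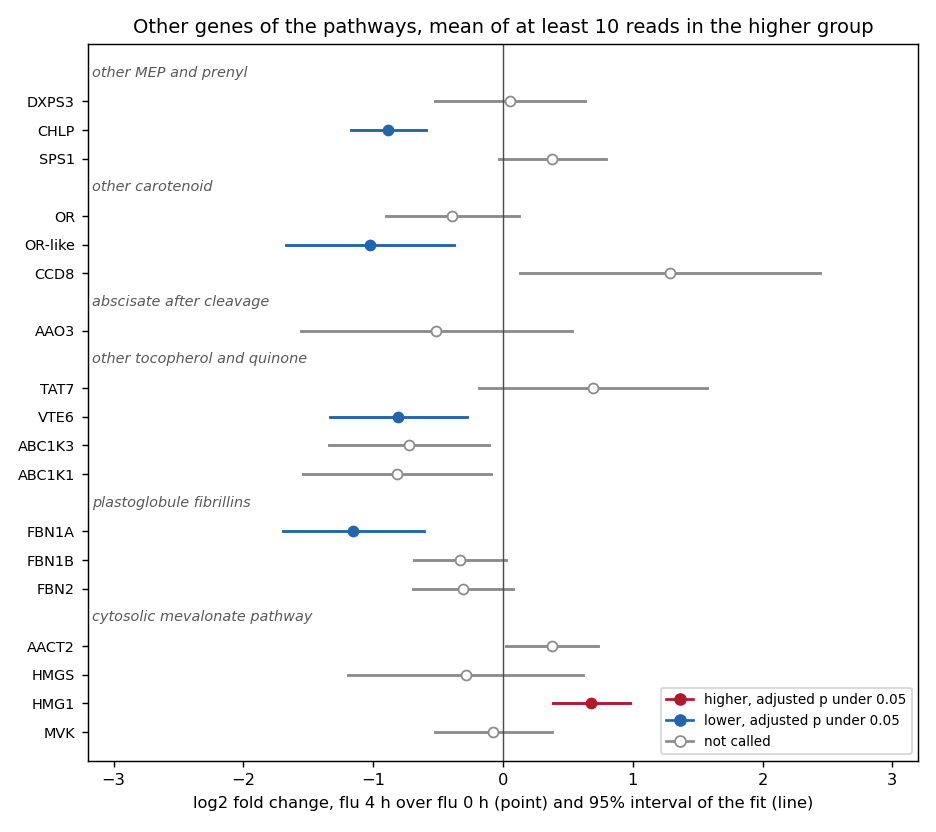
Log2 fold change of *flu* 4 h over *flu* 0 h for the 18 other pathway genes that averaged 10 or more reads in 1 of the groups, by list, with the estimate of the edgeR fit as a point and its 95% interval as a line. Filled points passed an adjusted p of 0.05 over all genes tested, which are *CHLP*, *OR-like*, *VTE6* and *FBN1A* on the lower side and *HMG1* on the higher side.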

How the data were processed

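The deposited table holds whole-number read counts per gene for 6 libraries of 3′-end RNA sequencing (MARS-seq), with columns of normalised values (signal scaled by size factors) beside them. Per the paper's methods the authors trimmed reads with cutadapt, mapped them to Araport 11 with STAR, counted them with HTSeq and normalised them with DESeq2. Versions in the submitters' processing notes were 2.17.1.14 for bcl2fastq and 1.8.3 for cutadapt. The deposited normalised signal served only to recover size factors for an alternative. The deposited regularised log2 values, made by the authors with DESeq2, were not used.

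As in the study, a gene was kept if any 1 library had 5 or more reads of it. Counts were TMM-scaled and tested with edgeR 4.0.16 (glmQLFit, glmQLFTest) in R 4.3.3, *flu* 4 h against *flu* 0 h with no covariate, and p-values were adjusted over all genes tested. Alternatives were DESeq2 1.42.0, limma-voom (limma 3.58.1), glmTreat against 2-fold, 4 other scalings, filterByExpr, no filter, removal of organelle genes, a replicate block, thinning to the smallest library and leaving out each library. Scripts were tested on simulated data. Ratios used 0.5 read as prior.

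The members and lists were chosen with earlier results of these data known. Per-library values were to be given for called members averaging 20 or more reads in 1 group, and for *NCED3*, *PSY* and *NPQ1*. Of the other listed genes, those called and the 2 of smallest p in each list were to be named. Values of further members and of markers were added after they were seen. Gene positions and windows are from RefSeq on TAIR10.1. Of the listed identifiers, 11108 matched its gene table.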

Additional observations from a re-analysis of the deposited data

How the results depend on the processing

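Across the alternatives other than glmTreat, 5 to 8 members were called, against 6 as reported. Against a 2-fold change (glmTreat) 1 member was called, 0 higher and 1 lower, and of all genes 106 were called, 58 higher and 48 lower. DESeq2 called 5 members, and 543 genes lower, against 869. With no filter on low counts 2 members were higher, as *MCT* joined *HPPD*. Leaving out each library in turn gave 1 to 2 members higher (2 without *flu* 4 h replicate 2 or 3, where *MCT* rests on 1 library) and 569 to 723 genes lower. Upper quartile scaling moved the median of all genes to -0.14, against -0.06, and with it 8 members were called. *BCH1*, near 0, changed sign with limma-voom (-0.0058), upper quartile scaling (-0.068), library size only (-0.015), filterByExpr (-0.026) and the replicate block (-0.0067), and ranged from -0.13 to 0.16 without single libraries. *GGPPS12* was -0.019 with upper quartile scaling and -0.056 to 0.15 without single libraries. *VTE1* ranged from -0.65 to 0.021 and the difference in the log2 ratio of *HDS* to *HDR* from -0.15 to 0.30 without single libraries. None of the values that changed sign passed a test, and the cause was not tested.

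Replicates of equal number deviated together only weakly (correlations of 0.0224, 0.0206 and 0.0552), though every library correlated best with its own number, so they were not taken as pairs. With a replicate block 6 members were called, as without it. Genes near the floor, *PSY*, *MCT*, *LUT5* and *VTE4*, could not show moderate differences at this depth.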
